A study of Mus musculus with 8 samples.

Results

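Cell-to-cell junction genes were followed in RNA-seq of total RNA from hearts of 4-month-old male FVB/N mice, with 4 AE3-null libraries and 4 wild-type libraries. AE3-null mice lack a functional Slc4a3 gene, which encodes the AE3 chloride/bicarbonate exchanger of the cardiac muscle cell membrane. All animals shared the FVB/N background, sex, age and tissue, and the labels do not say which chambers were taken. The genes were 10 connexins, cadherins, desmosome proteins and a scaffold (Gja1, Gja4, Gja5, Gjc1, Cdh2, Dsp, Pkp2, Jup, Dsg2 and Tjp1), chosen by name for their place in the intercalated disc or in vascular gap junctions. Each matched 1 row of the 23282 in the deposited count table, and all 10 passed the filter on low counts.

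The intercalated disc is the specialised border between heart muscle cells. Connexins there assemble into gap junction channels that pass current from cell to cell, while cadherins and desmosomes hold the cells together and anchor actin and desmin filaments. Gja1 encodes the main connexin of working muscle, Gja5 the connexin of atria, fast conduction fibres and arterial endothelium, Gjc1 a connexin of nodal and early cardiac cells, and Gja4 a connexin of arterial endothelium. Inherited defects of the desmosome genes Pkp2, Dsp, Dsg2 and Jup cause arrhythmogenic cardiomyopathy.

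Total counts ranged from 9133628 to 27078351 per AE3-null library and from 14875281 to 19080858 per wild-type library. CPM is a gene's count relative to its library's total after TMM scaling. Slc4a3 lay between 31.5 and 34.6 CPM in AE3-null libraries and between 378 and 389 CPM in wild-type libraries, so each library matched its label. The cardiomyocyte genes Myh6 and Actc1 led a list of 8 heart muscle markers whose summed level was 85800 to 92300 CPM in AE3-null and 85700 to 94100 CPM in wild-type libraries. On principal component 2 of the tested genes, wild-type replicate 3 lay at -19.3, against -1.09 to 8.26 in the other 7 libraries. Values without that replicate are given where they change the call of a junction gene named below.

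The 250 bases before the annotated start of Gja5 and of Gja1 are shown because these connexins carry the contrast described below. They come from RefSeq on assembly GRCm38.p6 (the counts were made on mm9), from chr3:97032152-97032401 and chr10:56377050-56377299, both on the plus strand. Capitals mark matches, on either strand, to letters bound by factors known to act on connexin genes. The letters searched were GGTGTGA, which T-box factors of the conduction system bind, and TNAAGTG, bound by the cardiac homeodomain factor NKX2-5. Also searched were GATAA for the zinc finger proteins of the GATA family, TGANTCA for the leucine zipper dimers of AP-1, and GGGCGG for the widely active factor Sp1.
Gja5: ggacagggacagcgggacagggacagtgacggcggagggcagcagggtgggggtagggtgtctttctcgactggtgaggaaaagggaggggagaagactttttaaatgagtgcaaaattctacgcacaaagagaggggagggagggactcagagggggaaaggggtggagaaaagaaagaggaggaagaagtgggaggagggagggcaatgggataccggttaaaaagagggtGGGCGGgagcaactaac
Gja1: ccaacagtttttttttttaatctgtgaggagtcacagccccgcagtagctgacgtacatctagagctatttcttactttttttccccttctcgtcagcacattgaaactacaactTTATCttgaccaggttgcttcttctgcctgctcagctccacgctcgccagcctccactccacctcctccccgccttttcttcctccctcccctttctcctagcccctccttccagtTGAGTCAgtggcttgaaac
The Gja5 window held an Sp1 match at position -17 from the start, and the Gja1 window held a GATA match at -135 and an AP-1 match at -19, which reads as AP-1 on both strands. Of 32851 windows of the same length, 32.7% held the Sp1 letters, 22.6% the GATA letters and 6.75% the AP-1 letters. Neither window held the T-box or NKX2-5 letters, which occurred in 3.33% and 10.1% of all windows. Windows of 6 of the 10 genes were in the table used.

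Of the 10 genes, 2 rose in AE3-null hearts, the connexin gene Gja5 and the desmosomal cadherin gene Dsg2, and none fell at an adjusted p under 0.05 (edgeR's quasi-likelihood test, Benjamini-Hochberg over 14136 tested genes). The share that passed among all tested genes was 6.47%, with 3.16% upward in AE3-null hearts and 3.31% downward. Gja5 and Dsg2 were also the only members of the 10 whose AE3-null libraries did not overlap the wild-type libraries, as was the case for 12.2% of tested genes, 6.1% with AE3-null higher and 6.15% with AE3-null lower. At an unadjusted p under 0.05, 5 of the 10 were higher and 0 lower, beside 9.79% and 11.2% of all tested genes (21% in either direction), and DESeq2 and limma voom also called 0 lower. The median log2 fold change was 0.10 over the 10 genes and -0.0018 over all tested genes. Calls over the whole table numbered 915. Leaving out AE3-null replicate 4, 3 or 1 made them 407, 569 or 581, and leaving out wild-type replicate 4 or 3 made them 431 or 1727. Gja5 and Dsg2 were called in each of those fits.

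**Figure D1:**
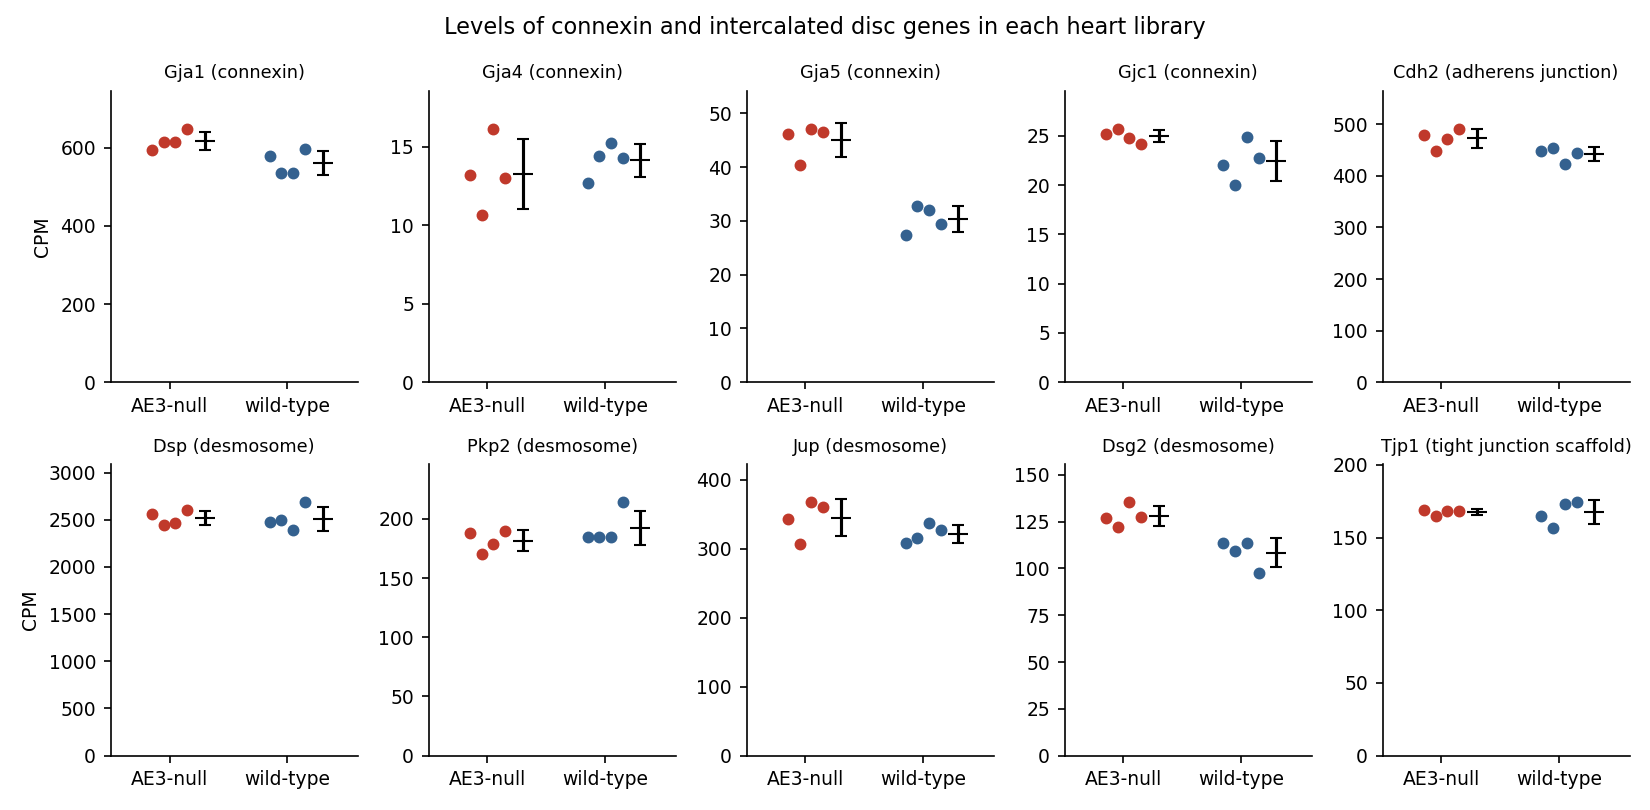
Level of each of the 10 genes in CPM (vertical axes from 0) in the 4 AE3-null and 4 wild-type libraries. Points are libraries, and the black bar beside them is the mean with its SD. Gja5 and Dsg2 have all AE3-null points above all wild-type points, and the points of the other 8 genes overlap.

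Gja5 was higher in AE3-null hearts, by 49.2%. It stood at 46.1, 40.4, 47.2 and 46.4 CPM in AE3-null replicates 1 to 4, against 27.4, 32.7, 32.0 and 29.4 CPM in wild-type replicates 1 to 4. The lowest AE3-null library lay above the highest wild-type library. The mean was 45.03 ± 3.12 CPM in AE3-null hearts and 30.4 ± 2.46 CPM in wild-type hearts (SD, n = 4 each), a log2 fold change of 0.58 (SE 0.064, edgeR adjusted p 8.32e-05), with a 95% confidence interval of the fold of 1.36 to 1.64. By p-value it ranked 16 of the 14136 tested genes.

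Atrial markers moved with Gja5. Of 9 atrial cardiomyocyte markers 7 rose by log2 0.28 to 0.47, Myl1 fell by 2.21 on the same scale and Bmp10, at log2 -0.05, was not called. The shares over all tested genes were 3.16% called higher and 3.31% called lower. Their summed level, in which Nppa and Myl4 were most abundant, was 4100 to 4690 CPM in AE3-null and 3150 to 3720 CPM in wild-type libraries. Nppa alone made up most of it, at 2783 ± 196 CPM in AE3-null and 2077 ± 209 CPM in wild-type hearts (SD, n = 4 each), so ratios to this sum rest largely on Nppa. Per 1000 atrial marker counts there were 10.3 ± 0.537 Gja5 counts in AE3-null and 9.0 ± 0.575 in wild-type libraries (SD, n = 4 each). The lowest AE3-null value, 9.86, lay just above the highest wild-type value, 9.85, and the difference of mean log2 values was 0.19, beside a log2 fold change of 0.58 for Gja5 itself. In bulk heart RNA a larger share of atrial cells and more RNA per atrial cell cannot be told apart, and the part of either in the Gja5 difference was not tested.

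Conduction markers had 3 of 9 tested genes risen and none fallen, beside 3.16% called higher and 3.31% lower among all tested genes. Their sum, led by Cacna2d2 and Irx3, was 123 to 140.0 CPM in AE3-null and 112 to 128 CPM in wild-type libraries. Per 1000 conduction marker counts there were 341 ± 14.2 Gja5 counts in AE3-null and 260 ± 16.9 in wild-type libraries (SD). The genotypes did not overlap, with a difference of mean log2 values of 0.39. The 8 arterial endothelial markers, led by Dll4 and Efnb2, were lower in sum in AE3-null hearts (173 to 193 CPM) than in wild-type hearts (206 to 218 CPM), and 1 of the 8 fell. Gja5 counts per 1000 arterial marker counts were 211 to 272 in AE3-null and 126 to 158 in wild-type libraries. No conduction, atrial or arterial marker was at 0 in every library, but 2 conduction markers were barely detected. Isl1 reached at most 0.214 CPM and was not tested, and Shox2 reached at most 0.895 CPM.

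Gja1, the most abundant connexin, was slightly higher in AE3-null hearts but did not pass the threshold. It stood at 594, 614, 614 and 649 CPM in AE3-null libraries, against 579, 536, 536 and 596 CPM in wild-type libraries. AE3-null replicate 1 and wild-type replicate 4 overlapped narrowly, and the other libraries of the genotypes were separate. The log2 fold change of 0.14 (SE 0.041) had an edgeR adjusted p of 0.0556. Over 18 alternatives the adjusted p ran from 0.0268 to 0.187, and 6 of them called Gja1 higher. Of the 6, 1 was the main fit read at an adjusted p under 0.1. The others included DESeq2 (adjusted p 0.0465), scaling by total counts (0.0268) and the fit without wild-type replicate 4 (0.037). Its count per 1000 cardiomyocyte marker counts was 6.89 ± 0.328 in AE3-null and 6.29 ± 0.34 in wild-type libraries (SD, n = 4 each), with overlapping ranges.

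Gjc1 and Gja4 were low and were not called. Gjc1 was tight in AE3-null hearts, at 25.2, 25.7, 24.8 and 24.2 CPM, and wider in wild-type hearts, at 22.1, 19.97, 24.9 and 22.7 CPM. Only wild-type replicate 3 reached into the AE3-null range. Its log2 fold change of 0.15 (SE 0.065) had an edgeR adjusted p of 0.19, and without wild-type replicate 3 it was called higher (log2 0.21, adjusted p 0.0401). Gja4 stood at 13.2, 10.7, 16.2 and 13.04 CPM in AE3-null hearts, against 12.7, 14.4, 15.2 and 14.3 CPM in wild-type hearts. Both the lowest and the highest of its 8 values were AE3-null. Its log2 fold change was -0.07 (SE 0.101, adjusted p 0.76), with a 95% confidence interval of the fold of 0.821 to 1.11. It was -0.0043 without AE3-null replicate 2 and -0.17 without AE3-null replicate 3.

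All 12 tested endothelial markers had negative log2 fold changes and 4 fell, beside 3.31% called lower and 3.16% higher among all tested genes. Their sum was 1650 to 1730 CPM in AE3-null and 1880 to 2030 CPM in wild-type libraries. Red blood cell markers were also lower in sum, at 2820 to 3930 CPM in AE3-null and 4060 to 6480 CPM in wild-type libraries, with all 6 tested markers negative and 1 fallen. The most abundant of them, Hba-a1 and Hba-a2, held the same value in every library. The sum and the count of 6 include that value for both genes. Smooth muscle and pericyte markers were higher in sum, at 1620 to 1730 CPM in AE3-null and 1520 to 1580 CPM in wild-type libraries. Of these 11 markers, 2 rose, and 7 had positive and 4 negative log2 fold changes. The most abundant, Abcc9, was 1 of the risen genes and a large part of the sum and of its difference between genotypes. The sum therefore does not speak for the list as a whole. Abcc9 stood at 719.5 ± 28.3 CPM in AE3-null and 644.4 ± 14.1 CPM in wild-type hearts (SD, n = 4 each). The part of these cells in the connexin values was not tested. Gja4 counts per 1000 endothelial marker counts were 7.83 ± 1.35 in AE3-null and 7.24 ± 0.735 in wild-type libraries (SD, n = 4 each), with overlapping ranges.

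Ratios of connexin counts within a library do not depend on how libraries are scaled. Gja5 counts were 7.77%, 6.58%, 7.68% and 7.15% of Gja1 counts in AE3-null replicates 1 to 4, against 4.73%, 6.11%, 5.98% and 4.94% in wild-type replicates 1 to 4. The genotypes did not overlap. The difference of the mean log2 ratio was 0.43 (two-sided exact permutation test, p = 0.0286, the smallest that 4 against 4 libraries allow, and 0.0571 after adjustment over 4 ratios). Gja4 counts were 28.7%, 26.4%, 34.3% and 28.1% of Gja5 counts in AE3-null libraries, against 46.3%, 44.0%, 47.5% and 48.5% in wild-type libraries. These also did not overlap (log2 difference -0.67, exact permutation p = 0.0286, adjusted 0.0571). With 4 ratios, the adjusted p could pass 0.05 only if at least 3 of the 4 reached the smallest p.

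The remaining ratios overlapped between genotypes. Gja4 against Gja1 differed by log2 -0.24 (exact permutation p = 0.171, adjusted p 0.229) and Gjc1 against Gja1 by 0.02 (exact permutation p = 0.857, adjusted p 0.857). The sign for Gjc1 turned to -0.0011 without AE3-null replicate 1 and to -0.01 without wild-type replicate 2.

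**Figure D2:**
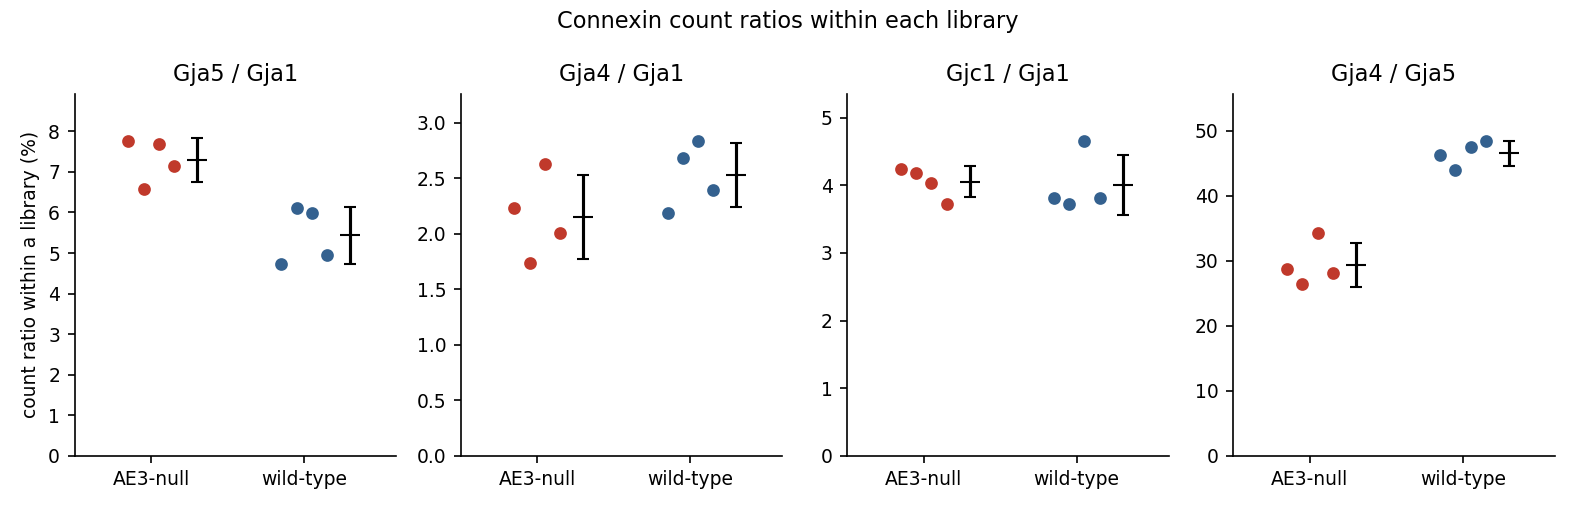
Ratio of raw counts of connexin genes within each library, in percent (vertical axes from 0), for 4 AE3-null and 4 wild-type libraries. Points are libraries and black bars are means with SD. The ratio of Gja5 to Gja1 lies at 6.58% to 7.77% in AE3-null and 4.73% to 6.11% in wild-type libraries, and that of Gja4 to Gja5 is lower in every AE3-null library than in any wild-type library.

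Counts were divided by exon length to set the connexins side by side. On this scale, CPM per kilobase, Gja1 made up 86.4% ± 0.917 of the 4 connexins in AE3-null hearts and 87.3% ± 1.17 in wild-type hearts (SD, n = 4 each). Gja5 made up 6.22% ± 0.408 in AE3-null and 4.69% ± 0.552 in wild-type hearts, and its lowest AE3-null share, 5.68%, lay above its highest wild-type share, 5.24%. The share of Gjc1 was 3.95% ± 0.22 in AE3-null and 3.94% ± 0.388 in wild-type hearts. That of Gja4 was 3.38% ± 0.561 in AE3-null and 4.02% ± 0.411 in wild-type hearts, with overlapping ranges.

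Dsg2, the desmoglein that bridges neighbouring heart muscle cells in the desmosome, rose by 18.3% in AE3-null hearts. It stood at 127, 122, 135 and 127 CPM in AE3-null libraries, against 113, 109.5, 113 and 97.4 CPM in wild-type libraries. All AE3-null libraries lay above all wild-type libraries, and wild-type replicate 4 was the lowest. Its log2 fold change of 0.24 (SE 0.049) had an edgeR adjusted p of 0.00784, with a 95% confidence interval of the fold of 1.1 to 1.27. Dsg2 was called in all 18 alternatives, with a highest adjusted p of 0.0316 without AE3-null replicate 3. Per 1000 cardiomyocyte marker counts it was 1.43 ± 0.0606 in AE3-null and 1.22 ± 0.129 in wild-type libraries (SD, n = 4 each), without overlap. The summed level of 10 epicardial and epithelial markers, led by Upk3b and Gpm6a, was 94.0 to 109 CPM in AE3-null and 85.7 to 99.7 CPM in wild-type libraries, with overlapping ranges. Of the 9 tested, 1 rose and 0 fell, beside 3.16% called higher and 3.31% lower among all tested genes. Positive log2 fold changes numbered 5 and negative ones 4. Per 1000 of these marker counts, Dsg2 counts were 1260 ± 56.9 in AE3-null and 1180 ± 122 in wild-type libraries (SD, n = 4 each), with overlapping ranges and a log2 difference of 0.11, beside 0.24 for Dsg2 itself. The part of these cells in the Dsg2 difference was not tested.

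The desmosomal plaque genes were not called. Dsp, encoding desmoplakin, which ties the plaque to desmin filaments, was the most abundant of the 10 genes. It stood at 2565, 2449, 2462 and 2607 CPM in AE3-null hearts, against 2480, 2494, 2388 and 2688 CPM in wild-type hearts. The lowest and highest values were both wild-type, with a log2 fold change of 0.0048 (SE 0.038; edgeR, adjusted p 0.965) and a 95% confidence interval of the fold of 0.95 to 1.06. Pkp2, encoding the armadillo protein plakophilin of the plaque, stood at 188, 170.1, 178 and 190.0 CPM in AE3-null hearts, against 185, 185, 185 and 214 CPM in wild-type hearts. Only wild-type replicate 4 stood above the AE3-null range. Its log2 fold change was -0.08 (SE 0.052, adjusted p 0.412), and -0.02 without wild-type replicate 4. Jup, encoding plakoglobin, which serves both desmosomes and adherens junctions, stood at 343, 308, 368 and 361 CPM in AE3-null hearts, against 308, 316, 337 and 327 CPM in wild-type hearts. Here 3 of the 4 AE3-null libraries lay above all wild-type libraries, and the log2 fold change of 0.10 (SE 0.050) had an adjusted p of 0.269.

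Cdh2, the classical cadherin of the cardiac adherens junction, stood at 480.0, 449, 471 and 492 CPM in AE3-null hearts, against 448, 453, 423 and 444 CPM in wild-type hearts. AE3-null replicate 2 lay within the wild-type range and the other AE3-null libraries above it. Its log2 fold change of 0.10 (SE 0.037) had an edgeR adjusted p of 0.128. Tjp1, the scaffold that binds connexins at the rim of gap junction plaques, was the steadiest of the 10 genes in AE3-null hearts. It stood at 169, 165, 168 and 168 CPM there, against 165, 157, 173 and 174.5 CPM in wild-type hearts. The AE3-null values lay inside the wild-type range, and the log2 fold change was 0.0025 (SE 0.039, adjusted p 0.982), with a 95% confidence interval of the fold of 0.946 to 1.06.

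**Figure D3:**
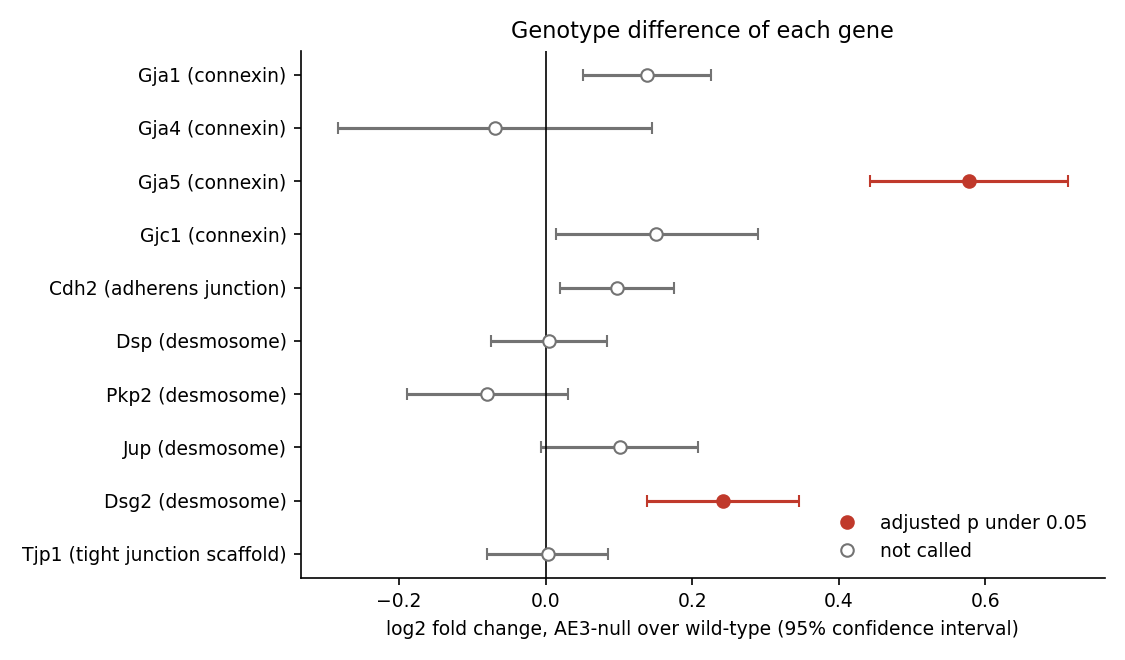
Log2 fold change of each gene, AE3-null over wild-type (horizontal axis), with its 95% confidence interval from edgeR. Filled red points have an adjusted p under 0.05. Gja5 at 0.58 and Dsg2 at 0.24 are called, while Dsp and Tjp1 lie closest to 0.

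Per kilobase of exon the order of levels was the same for the 8 most abundant genes in both genotypes. It ran from Dsp (263 ± 8.07 CPM per kilobase in AE3-null and 262 ± 13.2 in wild-type hearts, SD, n = 4 each) through Gja1 (201 ± 7.48 in AE3-null and 183 ± 9.96 in wild-type hearts), Jup, Cdh2, Pkp2, Tjp1 and Dsg2 to Gja5 (14.5 ± 1.0 in AE3-null and 9.77 ± 0.79 in wild-type hearts). In AE3-null hearts Jup and Cdh2 overlapped, as did Tjp1 and Dsg2, and Gjc1 and Gja4. In wild-type hearts Gja5 overlapped Gja4, and Gja4 overlapped Gjc1, whereas in AE3-null hearts every Gja5 value lay above every Gjc1 value, the highest of which was 9.46 CPM per kilobase.

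Among 19 other connexin and pannexin genes, 15 had too few counts to be tested. Of these, 6 had no count in any library, which allows at most 0.111 to 0.328 CPM per library (3 counts, counting error only), and the highest, Gjc3, reached 0.7 CPM. Of the 4 tested genes, the large-pore channel gene Panx2 rose at a low level, with 4.45 ± 0.253 CPM in AE3-null and 3.15 ± 0.561 CPM in wild-type hearts (SD, n = 4 each; log2 0.51, SE 0.138, edgeR adjusted p 0.0366). Its call was lost with DESeq2 (adjusted p 0.0575) and in 6 of the 8 fits without a library, all 4 without an AE3-null library and those without wild-type replicate 2 or 4 (highest 0.116).

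Other desmosome genes went both ways, with 2 of 6 tested genes risen, 1 fallen and a list median of log2 0.01. Over all tested genes 3.16% were called higher and 3.31% lower. The desmocollin gene Dsc2, whose product pairs with desmogleins, rose. It stood at 81.9, 90.3, 93.3 and 88.9 CPM in AE3-null hearts, against 68.8, 71.1, 76.3 and 66.8 CPM in wild-type hearts, without overlap (log2 0.32, SE 0.051, edgeR adjusted p 0.00126). Perp, a desmosome membrane protein, rose by log2 0.22 (SE 0.035, adjusted p 0.00147). The intermediate filament gene Des fell by 0.16 on the log2 scale (SE 0.044, adjusted p 0.0431), a call lost in 10 of 18 alternatives, among them limma voom (0.058) and every fit without a library except that without wild-type replicate 3. Dsc2 and Perp were called in all 18.

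None of 15 other adherens junction genes was called by edgeR, with a median of log2 0.02 and a range from -0.12 to 0.21. At an unadjusted p under 0.05, 5 of the 15 were higher and 1 lower, beside 9.79% and 11.2% of all tested genes. DESeq2 called 1 higher (Lmo7) and 0 lower, and limma voom called 0. Of these, the smallest p-values belonged to the actin-binding protein genes Ablim1 (log2 -0.12, unadjusted p 0.00502, adjusted 0.0648) and Lmo7 (log2 0.11, unadjusted p 0.0051, adjusted 0.0652). Each was called in 4 of 18 alternatives. For both, 1 of these was the main fit read at an adjusted p under 0.1, and another was the edgeR fit without wild-type replicate 3. In that fit Ablim1 had log2 -0.147 (adjusted p 0.0145) and Lmo7 log2 0.117 (adjusted p 0.0432). It called 4 of the 15 genes higher and 1 lower, beside 821 higher and 906 lower of 14309 tested genes. Of 9 tested tight junction scaffold genes, Magi3 rose and Pard3 fell, beside 3.16% called higher and 3.31% lower among all tested genes. Magi3, a scaffold of the same kinase-like family as Tjp1, rose to 122 ± 5.23 CPM in AE3-null hearts, against 94.3 ± 1.81 CPM in wild-type hearts (SD, n = 4 each; log2 0.37, SE 0.040, adjusted p 5.83e-05). The polarity gene Pard3 fell by 0.18 on the log2 scale (SE 0.048, adjusted p 0.0335), a call lost when libraries were scaled by total counts (0.0682) and in 6 of 8 fits without a library, all but those without AE3-null replicate 2 or wild-type replicate 3.

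Of 20 other intercalated disc proteins 2 rose and 2 fell, with a median of log2 -0.0032. The shares among all tested genes were 3.16% called higher and 3.31% lower. Popdc2, a cyclic AMP-binding membrane protein, rose by log2 0.23 (SE 0.042, edgeR adjusted p 0.00359), and its family member Popdc3 fell by 0.35 (SE 0.091, adjusted p 0.0417). The membrane anchor Ank2 rose by log2 0.14 (SE 0.039, adjusted p 0.0385). The call of Popdc3 was lost in every fit without a library but that without wild-type replicate 3 (highest adjusted p 0.134), and that of Ank2 in those without AE3-null replicate 1, 3 or 4 or wild-type replicate 1, 2 or 4 (highest 0.149).

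Genes that act on connexins had 5 risen members, and edgeR called none lower, beside 3.16% higher and 3.31% lower of all tested genes. DESeq2, limma voom and an unadjusted p under 0.05, from the same 8 libraries, also gave 0 lower. At that unadjusted p 11.2% of all tested genes were lower. Of 19 trafficking and phosphorylation genes 2 rose, the membrane-cytoskeleton linker Ezr (log2 0.45, SE 0.047, edgeR adjusted p 5.43e-05) and the muscle caveolin Cav3 (log2 0.18, SE 0.043, adjusted p 0.0172), around a list median of -0.00063. Of 15 tested transcription factors known to act on connexin genes 3 rose, with a median of log2 0.08. Hopx, a homeodomain cofactor, rose by 0.24 (SE 0.044, adjusted p 0.0039), Gata6 by 0.20 (SE 0.047, adjusted p 0.0162), and Tbx5, a T-box factor required for Gja5 expression in mice, by 0.27 (SE 0.062, adjusted p 0.0169). Tbx5 is itself enriched in atria. Without AE3-null replicate 4 or wild-type replicate 4 the calls of Cav3, Gata6 and Tbx5 were lost, and those of Cav3 and Tbx5 also with AE3-null replicate 3 left out and that of Tbx5 without wild-type replicate 1 (highest adjusted p 0.0666, 0.0619 and 0.0696).

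Over these 7 lists the calls numbered 15 among 88 tested genes (17%), with 11 up and 4 down in AE3-null hearts, beside 6.47% of all tested genes, with a median log2 fold change of 0.03. The lists were chosen with earlier results of these data known, so the 2 shares were not compared by a test. The count was 7 without AE3-null replicate 4 or wild-type replicate 4, 8 without AE3-null replicate 3, 10 without AE3-null replicate 1 or wild-type replicate 1 and 26 without wild-type replicate 3. Over the whole table the same fits, in this order, called 407, 431, 569, 581, 658 and 1727 genes.

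**Figure D4:**
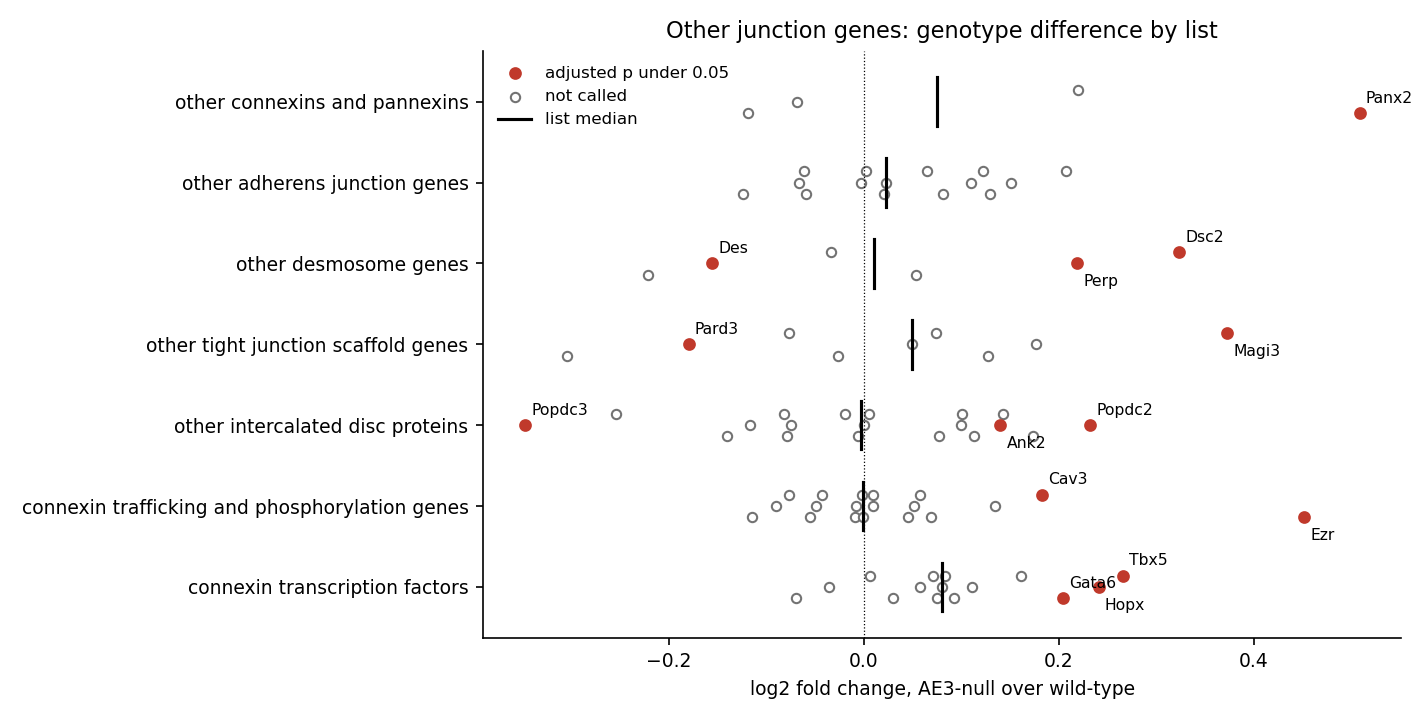
Log2 fold change, AE3-null over wild-type (horizontal axis), of tested genes in 7 lists of junction and connexin-related genes, with 1 gene of the intercalated disc list not shown. Filled red points, labelled by gene, have an adjusted p under 0.05, open points do not, and black lines are list medians. Called genes lie on both sides of 0 in the desmosome, tight junction and intercalated disc lists.

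The genes whose profile over the 8 libraries lay closest to that of Gja5 were Fgf12, Camk1d and Cacna2d2, out of 10537 protein-coding genes of at least 5 CPM. Likeness was the root-mean-square difference of mean-centred log2 CPM, which was 0.0463, 0.065 and 0.0773. Fgf12, an intracellular regulator of sodium channels, stood at 29.1, 28.2, 30.9 and 32.5 CPM in AE3-null hearts, against 17.98, 21.6, 21.3 and 20.1 CPM in wild-type hearts. Its libraries kept the same separation of genotypes as Gja5, and its log2 fold change was 0.59. The kinase gene Camk1d had a log2 fold change of 0.60 and the calcium channel subunit gene Cacna2d2, a conduction marker here, of 0.465. For Dsg2 the closest were Taf9b, Nebl and Hlcs, with root-mean-square differences of 0.0249, 0.0351 and 0.042. Nebl, a Z-disc protein gene, was the most abundant of these, at 138, 139, 149.7 and 144 CPM in AE3-null hearts, against 126, 118, 128 and 114 CPM in wild-type hearts. These genes were picked for their likeness over the same 8 libraries, so no test is given.

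**Figure D5:**
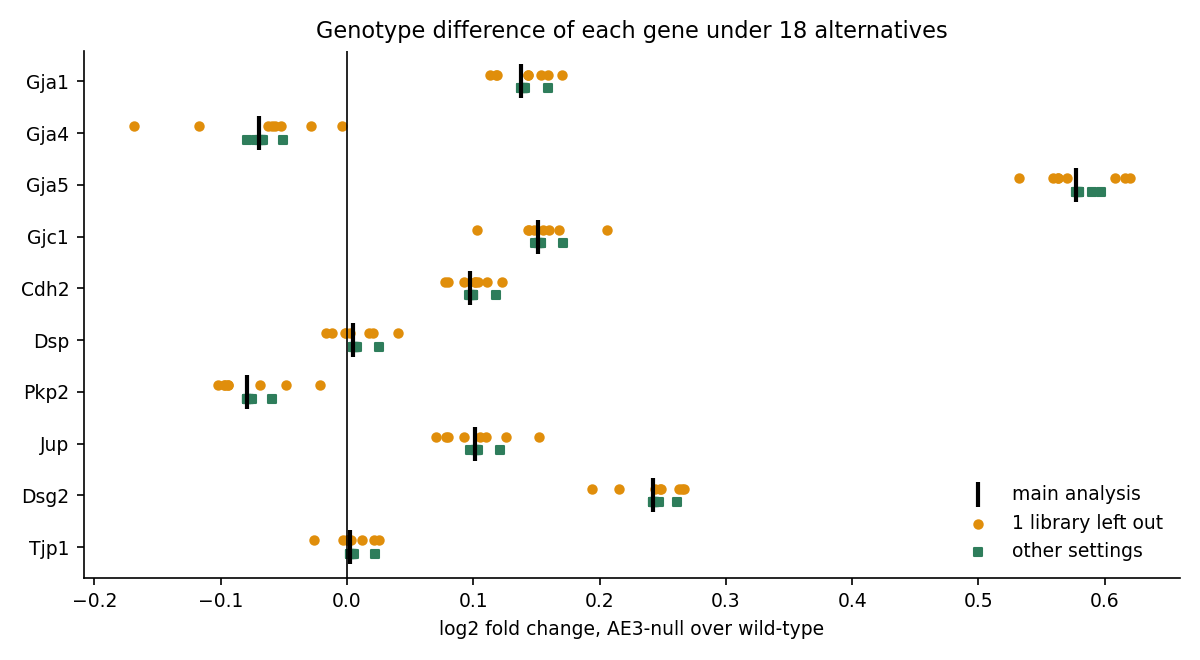
Log2 fold change of each gene, AE3-null over wild-type (horizontal axis), in the main analysis (black bar), with 1 library left out (orange circles) and under 10 other settings (green squares). Gja5 stays between 0.53 and 0.62 and Dsg2 between 0.19 and 0.27, while Dsp and Tjp1 lie on both sides of 0.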

How the data were processed

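The authors deposited raw read counts per gene, 1 column per library and with no normalization, for 4 AE3-null and 4 wild-type hearts. Per the submitters' processing notes, reads passed through bcl2fastq of CASAVA 1.8, were aligned to mouse build mm9 with TopHat and were tested with DESeq. Counting program, annotation and strand setting: not given in the sources used here. A gene and an overlapping antisense partner can therefore not be separated.

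Entrez numbers were matched to symbols through RefSeq (GRCm38.p6), for 23185 of 23282 rows. Genes passing edgeR's filterByExpr (minimum count 10) were compared by edgeR's quasi-likelihood F test with TMM scaling and robust moderation, AE3-null over wild-type, with Benjamini-Hochberg adjustment over all 14136 tested genes. CPM used TMM-scaled library sizes. Exon lengths were unions of the exons of GENCODE M21 transcripts with a RefSeq accession. Each genotype had 4 mice per the series' design, and p-values cover the spread between libraries, which may be technical.

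The genes, lists and tests were chosen with earlier results of these data known. Named outside the 10 genes were up to 4 called genes of each list by smallest p, or 2 where none was called, and the 3 genes closest in profile to each called gene among the 10. Gjc3, Myl1, Bmp10, Isl1 and Shox2 were named after their values were seen. The values of 1 called gene of the lists are not reported here, though the counts and medians include it. Alternatives were other scalings and filters, DESeq2, limma voom, no robust moderation, an adjusted p under 0.1, no top 10 genes, a replicate block, and each library left out. The steps were tested on simulated data. Fits were run with DESeq2 1.42.0, edgeR 4.0.16 and limma 3.58.1 in R 4.3.3.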

Additional observations from a re-analysis of the deposited data

Results flagged for a closer look

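In groups of 4 libraries, a value was singled out when its gap to the nearest other value exceeded Dixon's 95% critical share of the group's range, which chance does in about 1 in 20 groups. Gja5 in AE3-null replicate 2 stood low, at 40.4 CPM, against 46.1 to 47.2 CPM in the other AE3-null libraries, and still above every wild-type library. That library was also the shallowest, with 9133628 counts, of which 375 were Gja5. Pkp2 in wild-type replicate 4 stood high, at 214.2 CPM, against 185 CPM in each of the other wild-type libraries. The count ratio of Gjc1 to Gja1 in wild-type replicate 3 was 4.66%, while its wild-type companions lay at 3.73% to 3.82%. The causes were not tested.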

How the results depend on the processing

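Of 180 values of the 10 genes under 18 alternatives, 166 kept direction and side of the threshold, 7 became called (6 of Gja1 and 1 of Gjc1) and 7 turned sign, those of Dsp and Tjp1, whose changes lay near 0. Among the 6 of Gja1, 1 was the main fit read at an adjusted p under 0.1. Dsp ran from -0.0164 to 0.0404 and Tjp1 from -0.0264 to 0.0251 with a library left out. Of 432 values of the other genes named, 363 kept both, 61 lost the call, 8 gained it and none turned sign.

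The 10 genes had 2 called, and 3 under 7 of the alternatives, with a library left out between 2 and 3. With a library left out, genes called over the whole table ran from 407 to 1727, those higher from 214 to 821 and those lower from 193 to 906, and genes of the 7 lists from 7 to 26. At an adjusted p under 0.1 they were 1546, 731, 815 and 23. Scaling by total counts gave 528 calls higher and 361 lower (59.4% higher), against 447 and 468 (48.9%) with TMM scaling. Ratios with a library left out ranged from 0.365 to 0.488 for Gja5 to Gja1, -0.345 to -0.145 for Gja4 to Gja1, -0.0107 to 0.0961 for Gjc1 to Gja1 and -0.749 to -0.623 for Gja4 to Gja5.

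With the replicate number as a block, Gja1 was called (adjusted p 0.0468) beside Gja5 and Dsg2, as were 1002 genes in all and 14 list genes, while the calls of Des (0.0522), Ank2 (0.0535) and Taf9b (0.0672) were lost. With 4 pairs an exact sign-flip test of the ratios cannot go below p = 0.125, so it says nothing about them. Replicate numbers did not pair the libraries: same-numbered deviations correlated at -0.0178 to 0.192, and of the 4 numbers only number 1 correlated best with itself. The cause of these shifts was not tested. At this depth 15 of the 19 other connexin and pannexin genes could not be tested.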
